A study of Homo sapiens with 9 samples.

Results

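The unfolded protein response and the integrated stress response were followed through 37 named genes, which were looked up by symbol among the 18143 genes listed for each library. All 37 were found, and all 37 passed the filter on low counts. By role they comprised 14 chaperone and folding genes of the endoplasmic reticulum (ER), 4 genes of ER-associated degradation, 4 genes for the ER stress sensors and XBP1, 9 genes for ATF4 and related stress regulators, and 6 metabolic targets of ATF4. The cells were A549, an established human lung adenocarcinoma line, transfected with a scramble siRNA (Scramble) or with either of 2 siRNAs against REV1, a DNA polymerase that copies past damaged bases (SiREV1#1 and SiREV1#2). RNA was taken after 48 h, with 3 libraries per group and 9 libraries in all. Every library came from this 1 line and every one had received an siRNA, so untransfected cells were not analysed here. The labels do not say whether replicates came from separate cultures, and p-values measure only the spread between these libraries, which may be technical.

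Cells sense unfolded protein in the ER lumen through the membrane proteins IRE1 (gene ERN1), PERK (gene EIF2AK3) and ATF6. IRE1 splices the XBP1 mRNA and ATF6 is cut to a free transcription factor, and both routes raise chaperones and degradation factors. PERK phosphorylates the initiation factor eIF2, as do other kinases that answer amino acid shortage, double-stranded RNA or haem shortage, and this slows general translation while the mRNA of ATF4 is translated better. ATF4 in turn raises genes for amino acid synthesis and for stress signalling, so its targets can move without the chaperones.

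The letters that XBP1 and ATF6 are known to use were searched in RefSeq promoter windows of GRCh38.p14, which reach from 250 bases before to 50 bases after each start site. A window was held for 33 of the 37 genes and for 27305 genes in all. The ER stress element ERSE, which is CCAAT, then 9 bases of any letter, then CCACG, searched on either strand, was in the windows of 25 genes in all (0.0916%). It was in 6 of 13 chaperone and folding genes (CALR, CANX, CRELD2, HSP90B1, HSPA5 and PDIA6) and in XBP1, but in 0 of 8 stress regulators and 0 of 4 metabolic targets. ERSE-II, which is ATTGG, any base and then CCACG, searched on either strand, was in 19 genes in all (0.0696%), among them HYOU1, SDF2L1 and HERPUD1. TGACGTGG was in 253 genes (0.927%) and among the 37 genes in HYOU1, where it overlapped an ERSE-II match 174 bases from the start site. The HYOU1 match printed below is another ERSE-II, 68 bases from the start site, without TGACGTGG. The amino acid response letters TGATGNAAT, which ATF4 is known to bind, were in 333 genes (1.22%) and in 0 of the 33 windows, which says only that these exact letters lie outside them. The matches below are examples from chaperone and folding genes, the degradation gene HERPUD1 and XBP1. Each is read 5′ to 3′ along the gene's strand, with the match in capitals. CALR, HYOU1 and SDF2L1 hold the reverse complement. The windows lie at chr9:125241376-125241424 (HSPA5, minus strand, 47 bases from the match to the start site), chr19:12938369-12938417 (CALR, plus strand, 206 bases), chr11:119057259-119057299 (HYOU1, minus strand, 68 bases), chr22:21642099-21642139 (SDF2L1, plus strand, 177 bases), chr16:56932010-56932050 (HERPUD1, plus strand, 106 bases) and chr22:28800588-28800636 (XBP1, minus strand, 33 bases). In the GENCODE v29 annotation the first 4 lie upstream of the gene, while 3 bases of the HERPUD1 window and 10 of the XBP1 window fall inside it. The ERSE matches of PDIA6, CANX, HSP90B1 and CRELD2, not printed, lie wholly inside the gene in that annotation.
HSPA5: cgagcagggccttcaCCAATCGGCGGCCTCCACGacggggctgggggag
CALR: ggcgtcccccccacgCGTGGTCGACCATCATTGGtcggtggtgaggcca
HYOU1: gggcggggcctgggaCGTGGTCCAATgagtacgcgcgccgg
SDF2L1: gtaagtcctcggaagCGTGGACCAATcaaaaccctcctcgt
HERPUD1: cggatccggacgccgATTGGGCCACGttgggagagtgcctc
XBP1: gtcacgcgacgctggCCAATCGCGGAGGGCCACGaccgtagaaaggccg

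Total counts lay between 13059082 and 20166451 over 8 libraries, while SiREV1#2 replicate 3 had FPKM values only. REV1 itself stood at 7.23, 7.90 and 8.44 FPKM in Scramble, at 2.6, 2.92 and 3.36 after SiREV1#1 and at 3.62, 3.36 and 3.18 after SiREV1#2, so both siRNA groups lay below Scramble and overlapped each other. Of the epithelial markers, KRT8 was at 1372 to 5602 FPKM and KRT18 at 2491 to 5216, whereas KRT19 reached at most 1.34. The summed FPKM of 6 fibroblast markers stayed at or below 1.78 and that of 4 endothelial markers at or below 0.14. The sum of the 4 leukocyte markers measured was 46.1 to 88.2 in the replicate 1 libraries and 19.3 to 24.9 in the others, with CD68 at 39.5 to 81.6 against 18.3 to 24.3 FPKM and CD14 at 5.04 to 5.89 against 0.13 to 0.43. CD14 was higher in replicate 1 by 4.36 ± 0.24 on the log2 scale (edgeR adjusted p = 2.3e-06) and CD68 by 1.54 ± 0.21, while PTPRC was at 0.01 to 0.47 FPKM over all libraries. Whether this had a part in the differences between replicates was not tested.

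At the level of FPKM, a measure per length of transcript, the gene set covered a wide range. In Scramble the highest mean was that of ATF4, at 398 ± 157 FPKM (SD, n = 3), followed by HSP90B1 (320 ± 59.1), CALR (309 ± 95.8) and CANX (281 ± 28.1). These neighbours lay within each other's spread. The lowest means were those of CHAC1 (3.53 ± 1.63), ERN1 (7.66 ± 4.16), EIF2AK3 (10.1 ± 3.69) and EDEM1 (11.2 ± 0.748). The large SDs of several genes came from replicate 1. Replicates 2 and 3 of a group differed by a median of 0.07, 0.05 and 0.04 on the log2 scale over the 37 genes in Scramble, SiREV1#1 and SiREV1#2, and by at most 0.33 (SEL1L in Scramble).

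**Figure D1:**
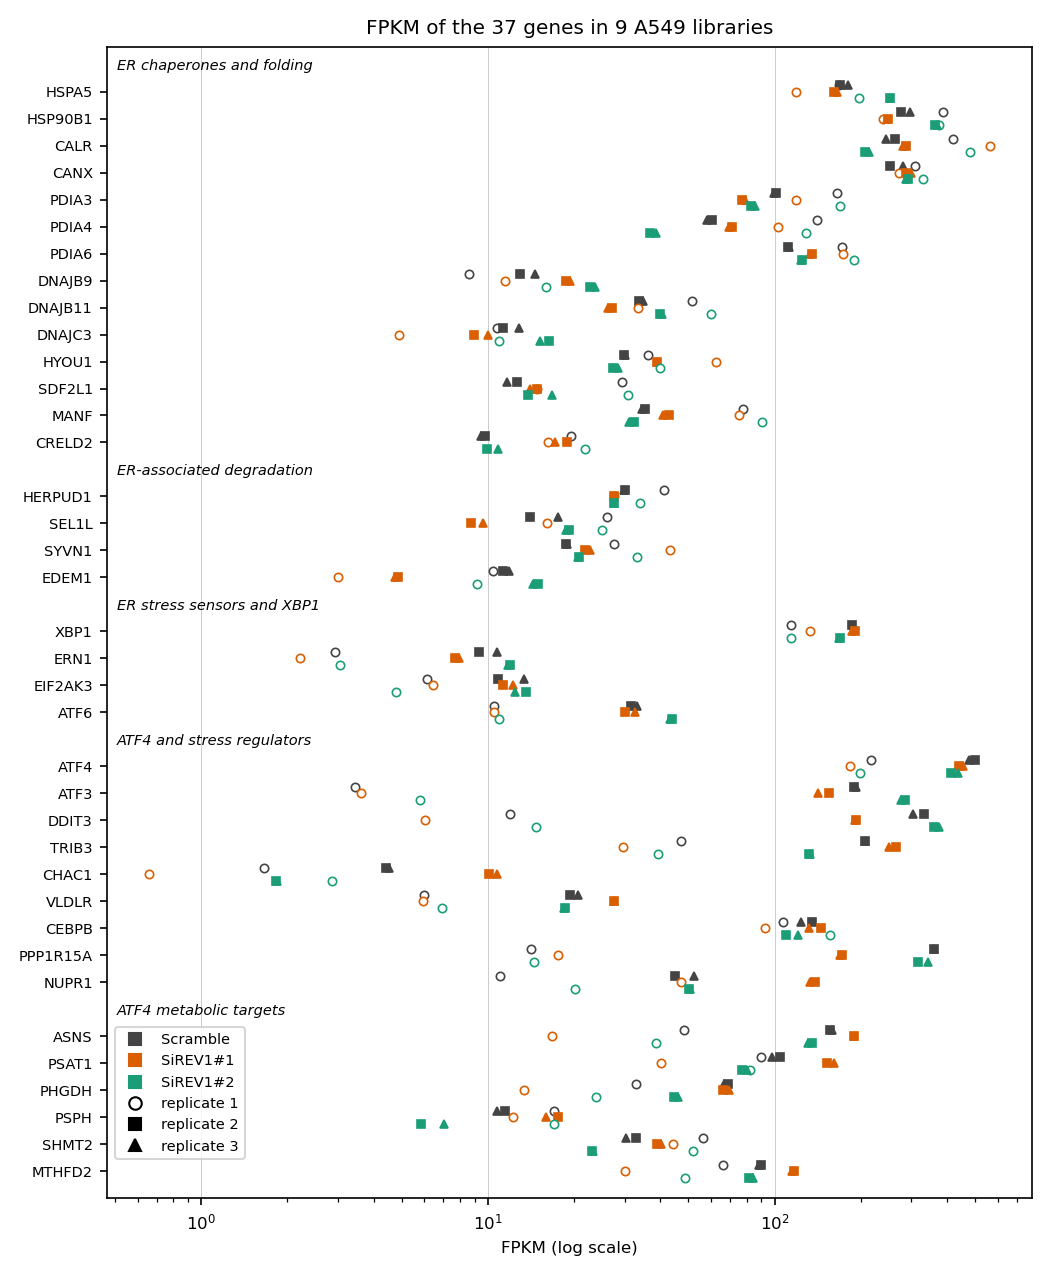
FPKM on a log axis for each of the 37 genes in the 9 libraries, ordered by role, with colour for the siRNA group and open circles for replicate 1, filled squares for replicate 2 and filled triangles for replicate 3. For ATF3, DDIT3 and PPP1R15A the open circles lie between 3.43 and 17.6 FPKM and the filled symbols between 142 and 374.

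Replicate 1 of every group was compared with replicates 2 and 3 first. ATF3, DDIT3 and PPP1R15A were lower in replicate 1 by fitted folds of 44.4, 25.6 and 15.9, and ATF4 by 2.15. Of the 14 ER chaperone and folding genes, 9 were higher in replicate 1, and the metabolic targets of ATF4 were split. In edgeR's quasi-likelihood test with group as a covariate, 32 of the 37 genes differed between replicate 1 and the other replicates, against 61.9% of the 14205 genes tested. Of them 14 were higher in replicate 1, where 31.2% of all genes were, and 18 were lower, where 30.7% of all genes were. With so large a share of all genes called, the sizes and the split by role say more than the count. The median absolute log2 difference was 0.84 over the 37 genes and 0.56 over all genes.

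Among the stress regulators, 0 of 9 were higher in replicate 1 and 8 were lower, with a median log2 difference of -1.70 against 0.02 over all genes. ATF3, a stress-induced repressor at chr1:212565334-212620777, stood at 3.43, 189 and 192 FPKM in Scramble, at 3.62, 154 and 142 after SiREV1#1, and at 5.78, 286 and 275 after SiREV1#2 (replicates 1, 2 and 3 in this order throughout). All 3 replicate 1 libraries were far below the other 6. The mean of replicates 2 and 3 was 55.6, 41 and 48.6 times replicate 1 in the 3 groups, and the fitted log2 difference was -5.47 ± 0.16 (SE; edgeR adjusted p = 2.1e-07), which ranked 12 from the bottom of 14205 genes.

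DDIT3, which encodes the pro-apoptotic factor CHOP at chr12:57516588-57521737, stood at 12, 331 and 304 FPKM in Scramble, 6.03, 193 and 190 after SiREV1#1 and 14.7, 361 and 374 after SiREV1#2. Its log2 difference was -4.68 ± 0.12 (edgeR adjusted p = 1.6e-07). PPP1R15A, whose product GADD34 directs a phosphatase to eIF2 and so ends the response, lies at chr19:48872392-48876057. It stood at 14.2, 360 and 360 FPKM, at 17.6, 172 and 169, and at 14.4, 317 and 342 in the same order of groups, a log2 difference of -3.99 ± 0.31 (edgeR adjusted p = 1e-05). DDIT3 and PPP1R15A ranked 24 and 49 from the bottom, and for each the replicate 1 libraries did not overlap the other 6.

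ATF4 itself moved less. Its mRNA stood at 218, 499 and 478 FPKM in Scramble, at 184, 441 and 454 after SiREV1#1 and at 198, 412 and 438 after SiREV1#2, a log2 difference of -1.10 ± 0.09 (edgeR adjusted p = 1.7e-05). ATF4 is controlled largely by translation, and its protein was not measured here. TRIB3, a pseudokinase that dampens ATF4 and AKT signalling, stood at 47.3, 206 and 207 FPKM in Scramble, at 29.5, 266 and 251 after SiREV1#1 and at 39.4, 132 and 133 after SiREV1#2 (log2 difference -2.24 ± 0.21, edgeR adjusted p = 2.9e-05). VLDLR, a lipoprotein receptor raised by ATF4, stood at 6.01, 19.4 and 20.6, at 5.94, 27.6 and 27.5, and at 6.91, 18.6 and 18.4 FPKM, and its log2 difference was -1.70 ± 0.15. That of NUPR1, a small chromatin-associated stress protein, was -1.59 ± 0.17.

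CHAC1, which degrades glutathione, was the least settled of the 8. It stood at 1.65, 4.41 and 4.52 FPKM in Scramble and at 0.66, 10.1 and 10.7 after SiREV1#1, but at 2.87, 1.83 and 1.84 after SiREV1#2, where replicate 1 was the highest. Its log2 difference of -1.40 ± 0.54 just passed (edgeR adjusted p = 0.046), and the call was lost on leaving out any 1 library of Scramble or SiREV1#1. Without SiREV1#1 replicate 1 the difference was -0.57. CEBPB, a transcription factor that pairs with ATF4, stood at 107, 136 and 124, at 93.0, 145 and 132, and at 156, 110 and 121 FPKM and was not called (log2 difference -0.10 ± 0.17, edgeR adjusted p = 0.62).

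The metabolic targets were split. ASNS, which makes asparagine, stood at 48.2, 156 and 158 FPKM in Scramble, at 16.8, 190 and 190 after SiREV1#1 and at 38.6, 135 and 131 after SiREV1#2. PHGDH stood at 32.9, 68.7 and 66.7, at 13.4, 66.2 and 69.2, and at 23.8, 44.6 and 45.9 FPKM in the same order, and MTHFD2 at 66.0, 90.0 and 88.2, at 30.1, 117 and 115, and at 48.6, 81.6 and 84.0. For all 3 genes the replicate 1 libraries lay below the other 6. PHGDH and MTHFD2, the serine synthesis enzyme and the mitochondrial folate enzyme, were lower in replicate 1 as well, with log2 differences of -2.23 ± 0.30 for ASNS, -1.35 ± 0.22 for PHGDH and -0.96 ± 0.23 for MTHFD2. SHMT2, which turns serine into glycine in mitochondria, was higher in replicate 1 (0.77 ± 0.14), as was PSPH (0.65 ± 0.25), which makes the last step to serine. SHMT2 stood at 56.4, 33.0 and 30.3, at 44.3, 38.9 and 40.1, and at 51.9, 23 and 23.3 FPKM. PSPH stood at 17.0, 11.4 and 10.8, at 12.3, 17.5 and 16.0, and at 17.0, 5.85 and 7.01 FPKM, so that after SiREV1#1 its replicate 1 was not the highest. The PSPH call was lost without Scramble replicate 1, 2 or 3 and without SiREV1#2 replicate 1 or 2, and without the last 2 libraries its difference was 0.29 and 0.30. PSAT1, the enzyme between PHGDH and PSPH, stood at 90.0, 104 and 98.3, at 40.0, 152 and 162, and at 82.2, 76.9 and 80.4 FPKM and was not called (-0.62 ± 0.31, edgeR adjusted p = 0.12).

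All 4 genes of the sensors and XBP1 were lower in replicate 1, with a median log2 difference of -1.15. ERN1 stood at 2.93, 9.32 and 10.7 FPKM in Scramble, at 2.21, 7.68 and 7.96 after SiREV1#1 and at 3.04, 12 and 11.8 after SiREV1#2 (log2 difference -1.74 ± 0.11, edgeR adjusted p = 3.8e-06). ATF6 stood at 10.5, 31.6 and 33.2, at 10.5, 30.1 and 32.7, and at 11, 43.7 and 43.3 FPKM in the same order (-1.28 ± 0.11). EIF2AK3 stood at 6.13, 10.8 and 13.4, at 6.42, 11.3 and 12.2, and at 4.77, 13.6 and 12.4 FPKM (-1.03 ± 0.15). XBP1, counted over spliced and unspliced forms together, stood at 114, 186 and 188, at 133, 190 and 186, and at 114, 170 and 168 FPKM (-0.51 ± 0.10). In each of these genes the replicate 1 libraries lay below the other 6, as in 13 of the 37 genes, against 28.0% of the 11429 genes with a mean FPKM over 1.

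The ER chaperones mostly went the other way: 9 of 14 were higher in replicate 1 and 2 were lower, with a median log2 difference of 0.58. CALR, the lectin chaperone calreticulin, stood at 419, 262 and 245 FPKM in Scramble, at 564, 287 and 281 after SiREV1#1 and at 482, 207 and 213 after SiREV1#2 (log2 difference 1.03 ± 0.12, edgeR adjusted p = 9.3e-05). MANF, a secreted ER stress protein, stood at 77.8, 35.4 and 34.4, at 75.2, 42.8 and 40.9, and at 90.7, 32.2 and 31.1 FPKM (1.21 ± 0.11), and the disulfide isomerase PDIA4 at 141, 60.4 and 58.0, at 102, 71.3 and 69.6, and at 129, 36.8 and 38.5 FPKM (1.22 ± 0.18). The replicate 1 libraries lay above the other 6 for CALR, MANF, PDIA4, PDIA3 and PDIA6, and for SYVN1 and SHMT2 outside this group, which makes 7 of the 37 genes against 18.2% of all genes.

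The other chaperones that were higher in replicate 1 were PDIA3 (0.84 ± 0.10), PDIA6 (0.58 ± 0.09), DNAJB11 (0.57 ± 0.09), HYOU1 (0.58 ± 0.12), SDF2L1 (0.90 ± 0.19) and CRELD2 (0.71 ± 0.19). PDIA3 and PDIA6 are disulfide isomerases. PDIA3 stood at 165, 101 and 99.4, at 119, 76.8 and 78.9, and at 169, 82.8 and 85.8 FPKM, and PDIA6 at 172, 111 and 112, at 173, 135 and 132, and at 189, 125 and 124. SDF2L1, a partner of HSPA5, stood at 29.4, 12.7 and 11.6, at 14.8, 14.9 and 14.0, and at 30.7, 13.8 and 16.7 FPKM. CRELD2 stood at 19.4, 9.77 and 9.44, at 16.2, 18.8 and 17.2, and at 21.8, 9.93 and 10.8 FPKM. In both of the last genes SiREV1#1 lacked the high replicate 1 of the other groups. The CRELD2 call was lost without Scramble replicate 1 and without SiREV1#2 replicate 1 or 2. HSPA5 (BiP), the master chaperone that also restrains the sensors, was not called, at -0.21 ± 0.10 (edgeR adjusted p = 0.083), although limma-trend on the FPKM of all 9 libraries called it lower (-0.29, limma adjusted p = 0.017). HSP90B1 and CANX were not called either (0.22 ± 0.10 and 0.16 ± 0.09). HSP90B1, the ER member of the HSP90 family, stood at 387, 277 and 296, at 238, 248 and 248, and at 374, 364 and 368 FPKM. CANX, the membrane-bound relative of calreticulin, stood at 310, 254 and 280, at 273, 288 and 300, and at 329, 292 and 287 FPKM, and its replicates overlapped. The co-chaperones DNAJB9 and DNAJC3 were lower in replicate 1, by -0.58 ± 0.10 and -0.48 ± 0.13 on the log2 scale. Of the 10 genes with an ERSE or ERSE-II, 6 were higher in replicate 1, where 31.2% of all genes were. XBP1 was lower, and HSPA5, HSP90B1 and CANX were not called. All of the 6 but HERPUD1 are chaperones counted above, so this is not a separate result.

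**Figure D2:**
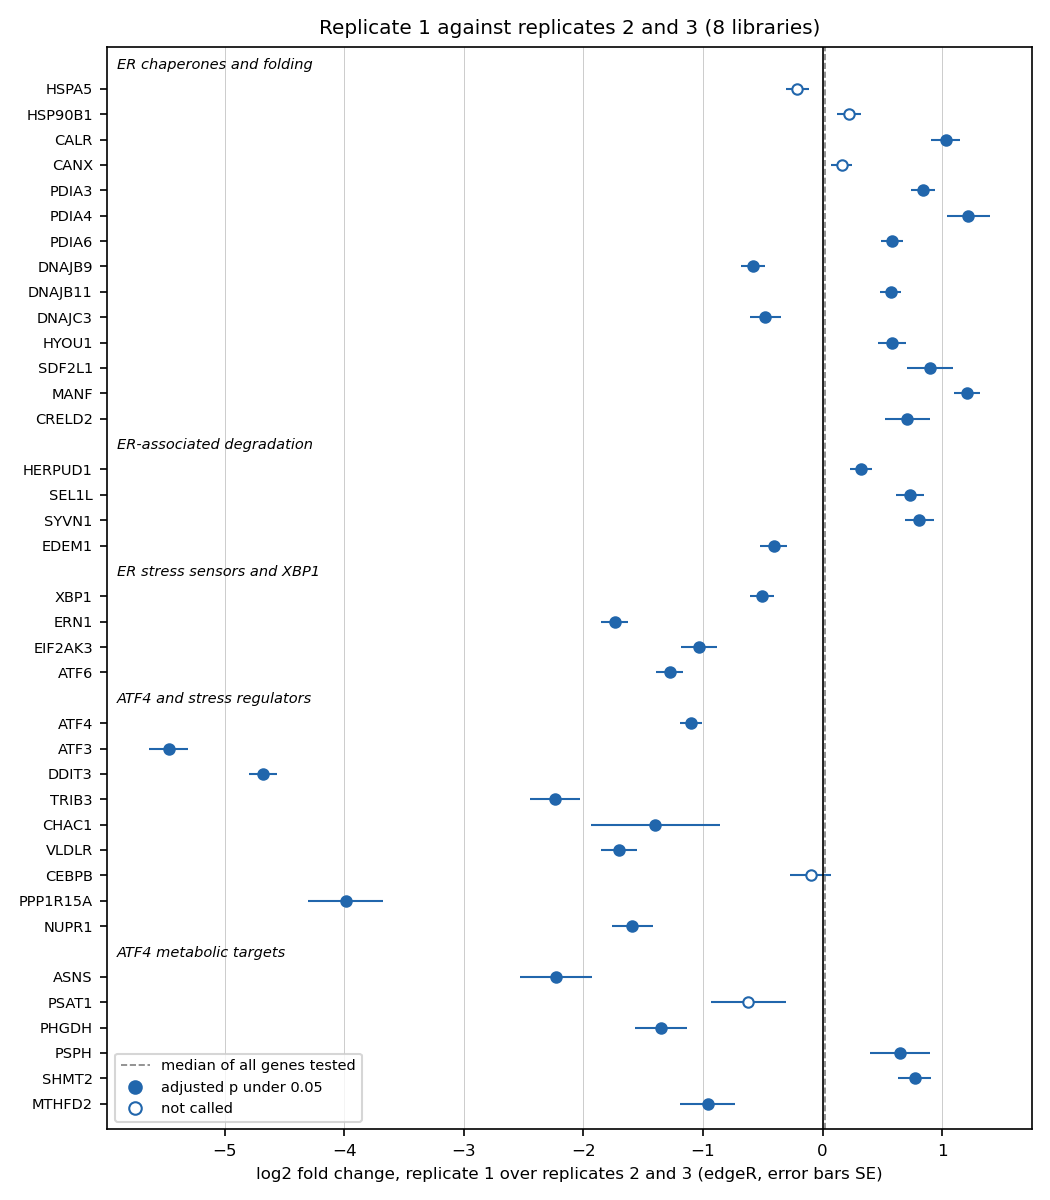
Fitted log2 difference of replicate 1 over replicates 2 and 3 for each of the 37 genes (edgeR, 8 libraries, bars SE), with filled points for an adjusted p under 0.05 and a dashed line at the median of all genes tested (0.02). The points run from ATF3 at -5.47 to PDIA4 at 1.22, with all stress regulators and sensors below 0 and 9 of 14 chaperones called above it.

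The degradation genes HERPUD1, SEL1L and SYVN1 were higher in replicate 1 (0.32 ± 0.09, 0.73 ± 0.12 and 0.81 ± 0.12 on the log2 scale) and EDEM1 was lower (-0.41 ± 0.11). HERPUD1, which gathers the degradation complex, stood at 41.2, 30.1 and 29.8, at 27.5, 27.5 and 27.4, and at 33.9, 27.6 and 27.6 FPKM. The ligase gene SYVN1 stood at 27.6, 18.7 and 18.9, at 43.1, 21.9 and 22.7, and at 33.1, 20.8 and 20.6 FPKM. HERPUD1 was not called under total-count scaling, nor without Scramble replicate 1 or 3. In the share of counts taken by the 10 highest genes, replicate 1 libraries also stood apart, at 9.63% to 14.5% against 5.82% to 7.16% in the others, and the part of this in the differences was not tested. On the FPKM scale the median of all genes shifted to -0.11 in this comparison, a move that leaves ATF3, DDIT3 and PPP1R15A far below it.

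Wider lists of the same pathways were counted in the same way, beside 31.2% of all genes higher in replicate 1 and 30.7% lower. Of 40 other ATF4 targets, 31 were lower in replicate 1 and 4 were higher, with a median log2 difference of -1.16. The smallest p-values were those of GDF15, a secreted stress cytokine (-3.50 ± 0.14), FAM129A (-3.41 ± 0.18) and SESN2, which restrains mTORC1 (-2.24 ± 0.14). Of 47 other ER folding and quality control genes tested, 15 were higher and 7 were lower, with a median of 0.03. The share that was higher was near that of all genes. The smallest p-values in this list were those of ERO1A (1.14 ± 0.09), FAF2 (-1.17 ± 0.10) and WFS1 (2.34 ± 0.22). Of 15 genes for eIF2, its kinases, its exchange factor and its phosphatases, 3 were higher and 7 were lower. PPP1R15B, the constitutive counterpart of PPP1R15A, was lower by 1.47 on the log2 scale. The cytosolic heat shock genes were the reverse of the ATF4 targets: 11 of 14 were higher in replicate 1 and 2 were lower, led by HSPA8 (5.06 ± 0.14) and the near-identical pair HSPA1A (4.60 ± 0.14) and HSPA1B (4.09 ± 0.12), whose reads cannot be told apart with certainty.

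Silencing of REV1 was then compared with Scramble to ask which of these genes followed the siRNA. SiREV1#1 lowered EDEM1 and SEL1L, of the degradation machinery, and DDIT3, and raised NUPR1, DNAJB9 and HYOU1 when replicates were matched by number. SiREV1#2 raised DNAJB9. Without the matching, the test called 0 of the 37 genes after either siRNA in edgeR, against 0.296% of all genes after SiREV1#1 and 0.00% after SiREV1#2. At an unadjusted p under 0.05 it found 2 genes (EDEM1 and NUPR1) and 0 genes, and DESeq2 called 1 gene (EDEM1) and 0 genes. With the replicate number as a block, edgeR called 6 of 37 genes after SiREV1#1, against 12.3% of all genes, and 1 of 37 after SiREV1#2, against 1.91%. The share after SiREV1#1 was close to that of all genes. On the FPKM of all 9 libraries with the replicate block, limma-trend called 9 of 37 after SiREV1#1, against 19.7% of all genes, and 2 after SiREV1#2 (DNAJB9 and ATF3), against 11.3%. Both comparisons share the Scramble libraries.

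EDEM1, at chr3:5187646-5219957, helps to extract misfolded glycoproteins from the folding cycle. It stood at 10.4, 11.3 and 11.9 FPKM in Scramble, at 3.01, 4.87 and 4.74 after SiREV1#1 and at 9.15, 14.9 and 14.4 after SiREV1#2. All 3 SiREV1#1 libraries lay below every other library. Without the block its log2 change after SiREV1#1 was -1.34 ± 0.24 (edgeR adjusted p = 0.098), and with the replicate block it was -1.36 ± 0.14 (edgeR adjusted p = 0.0021). After SiREV1#2 the blocked change was 0.15 ± 0.16 and was not called (edgeR adjusted p = 0.7).

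SEL1L, the partner of the ubiquitin ligase SYVN1 in the ER membrane, stood at 26.1, 14.0 and 17.6 FPKM in Scramble, at 16.1, 8.74 and 9.61 after SiREV1#1 and at 25.1, 19.2 and 18.7 after SiREV1#2. It was lower in each of the 3 SiREV1#1 pairs, and the groups overlapped because replicate 1 stood higher in all of them. The change after SiREV1#1 was -0.66 ± 0.35 without the block (edgeR adjusted p = 0.66) and -0.69 ± 0.15 with it (edgeR adjusted p = 0.025). SYVN1 itself was higher in 3 of 3 pairs after SiREV1#1 but was not called with the block (0.46 ± 0.15, edgeR adjusted p = 0.088) or without it (0.54 ± 0.38).

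NUPR1, at chr16:28532708-28539174, stood at 11, 45.1 and 52.5 FPKM in Scramble, at 47.2, 138 and 133 after SiREV1#1 and at 20.2, 50.5 and 50.9 after SiREV1#2. SiREV1#1 exceeded Scramble of the same number by 2.09, 1.61 and 1.34 on the log2 scale, while for SiREV1#2 the ratios were 0.86, 0.16 and -0.05. The blocked change was 1.73 ± 0.20 after SiREV1#1 (edgeR adjusted p = 0.0026) and 0.40 ± 0.23 after SiREV1#2, not called (edgeR adjusted p = 0.41). Without the block these were 1.60 ± 0.66 (edgeR adjusted p = 0.48) and -0.02 ± 0.72. DDIT3, with the FPKM values given above, was lower in each SiREV1#1 pair and had a blocked change of -0.76 ± 0.13 (edgeR adjusted p = 0.012), against -0.73 ± 1.52 without the block (edgeR adjusted p = 0.99). After SiREV1#2 it was 0.26 ± 0.15 with the block and -0.20 ± 1.70 without it, called in neither.

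DNAJB9, a co-chaperone that holds IRE1 inactive, was called with both siRNAs. It stood at 8.58, 13 and 14.6 FPKM in Scramble, at 11.4, 18.7 and 19.3 after SiREV1#1 and at 16.0, 22.8 and 23.6 after SiREV1#2. Both siRNAs were above Scramble in 3 of 3 pairs, and the SiREV1#2 libraries did not overlap Scramble. The blocked log2 changes were 0.52 ± 0.12 (edgeR adjusted p = 0.028) and 0.86 ± 0.14 (edgeR adjusted p = 0.029), and without the block 0.51 ± 0.28 and 0.71 ± 0.31, neither called. HYOU1, an ER-resident HSP70 relative, stood at 36.3, 29.7 and 30.0 FPKM in Scramble, at 62.6, 39.0 and 39.0 after SiREV1#1 and at 39.9, 27.2 and 28.5 after SiREV1#2, with a blocked change of 0.59 ± 0.15 after SiREV1#1 (edgeR adjusted p = 0.042) and -0.02 ± 0.18 after SiREV1#2. Without the block they were 0.65 ± 0.29 (edgeR adjusted p = 0.55) and 0.10 ± 0.33.

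**Figure D3:**
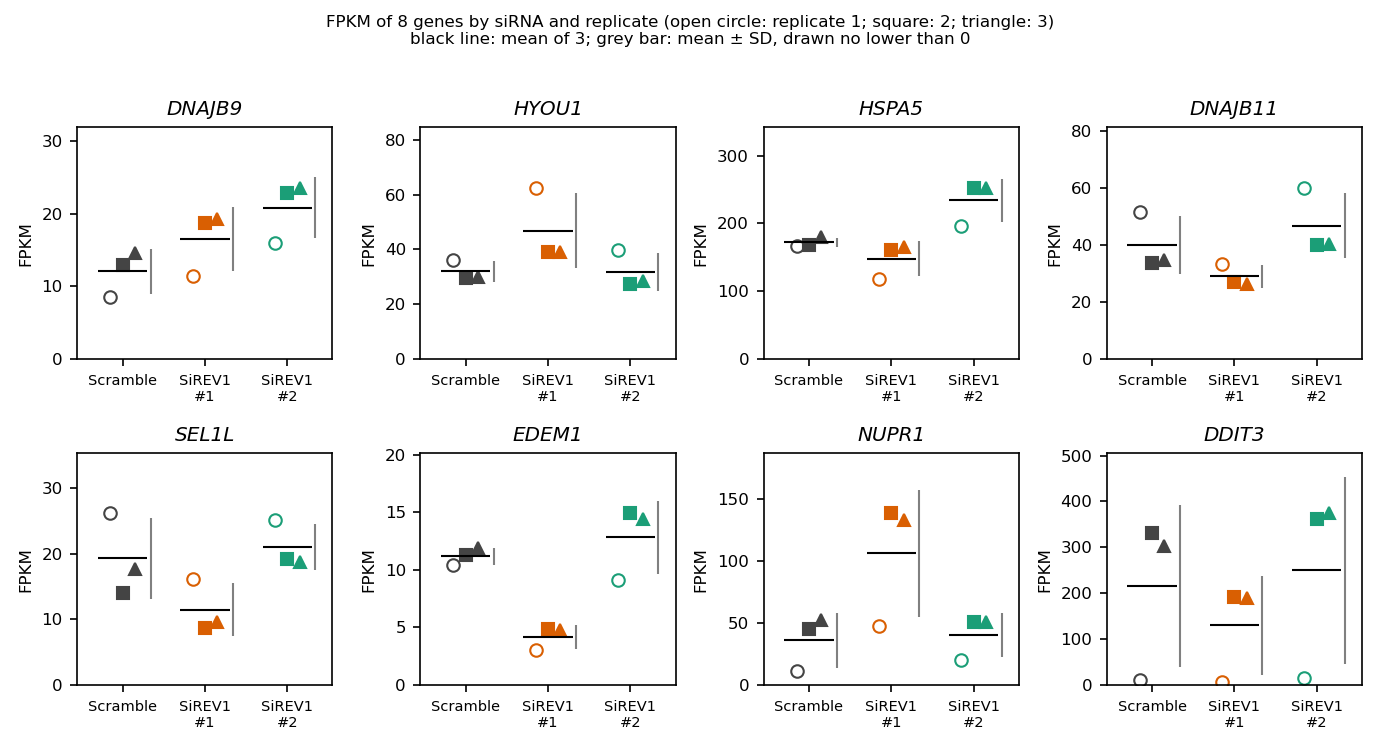
FPKM from 0 upward for 8 genes called for either siRNA or between them, by group, with an open circle for replicate 1, a square for replicate 2, a triangle for replicate 3, a black line at the mean of 3 and a grey bar for the mean ± SD. The 3 SiREV1#1 values of EDEM1 (3.01 to 4.87) lie below all others, and the replicate 1 circles of DDIT3 lie near 0 in every group.

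The remaining genes did not pass edgeR's test with the replicate block after either siRNA. With that block limma-trend on FPKM also called DNAJB11 (-0.43), DNAJC3 (-0.54) and PDIA3 (-0.40) lower after SiREV1#1 (limma adjusted p = 0.023, 0.039 and 0.043). After SiREV1#2 its additional call was ATF3 (0.57, limma adjusted p = 0.022). FPKM ratios had 1 sign in 3 of 3 same-numbered pairs for 18 of 37 genes after SiREV1#1, against 55.1% of all genes, and for 24 of 37 after SiREV1#2, against 55.6%. The groups did not overlap for 7 of 37 genes after SiREV1#1, against 20.1% of all genes, and for 3 of 37 after SiREV1#2 (HSPA5, DNAJB9 and PSAT1), against 16.1%. The same-sign share after SiREV1#2 was somewhat above the background, and the other shares were near it or below it. With 3 libraries against 3, an exact permutation test cannot pass the threshold, so no p is given for them. None of the sensors was called either. The blocked log2 changes of ERN1, EIF2AK3, ATF6 and XBP1 ran from -0.30 to 0.16 for SiREV1#1 and from -0.08 to 0.24 for SiREV1#2, and ATF4 was at -0.09 ± 0.12 and -0.17 ± 0.14.

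The 2 siRNAs were also compared with each other. In edgeR without a block 0 of 37 genes differed, against 0.676% of all genes, while 5 had an unadjusted p under 0.05 and DESeq2 called 2 (EDEM1 and HSPA5). With the replicate block 9 of 37 differed, against 17.6% of all genes. Lower after SiREV1#1 than after SiREV1#2 were the chaperones HSPA5, DNAJB11 and DNAJC3, the degradation genes SEL1L and EDEM1, and the regulators ATF3 and DDIT3, while HYOU1 and NUPR1 were higher. In limma-trend on FPKM with the replicate block 12 of 37 differed, against 36.5% of all genes, and in edgeR on replicates 2 and 3 only 28 of 37 did, against 54.4%. HSPA5, at chr9:125234853-125241330, stood at 168, 169 and 180 FPKM in Scramble, at 119, 161 and 165 after SiREV1#1 and at 197, 252 and 253 after SiREV1#2. Every SiREV1#1 library lay below every Scramble library, and every SiREV1#2 library above. The margin on the SiREV1#1 side was narrow, at 164.9 against 167.5 FPKM, with log2 ratios of -0.07 and -0.13 in replicates 2 and 3. In limma-trend on FPKM with the replicate block, the median of all genes after SiREV1#1 was itself -0.07. The blocked difference was -0.60 ± 0.15 (edgeR adjusted p = 0.031), against -0.56 ± 0.19 without the block (edgeR adjusted p = 0.26), and the blocked changes against Scramble were -0.15 ± 0.13 and 0.45 ± 0.15, neither of them called.

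DNAJB11, an ER co-chaperone of HSPA5, stood at 51.6, 33.7 and 34.8 FPKM in Scramble, at 33.5, 27.2 and 26.2 after SiREV1#1 and at 60.2, 39.8 and 40.5 after SiREV1#2. DNAJC3, which inhibits eIF2 kinases, stood at 10.8, 11.3 and 12.8, at 4.89, 8.97 and 10.0, and at 11, 16.3 and 15.2 FPKM. The blocked differences between the siRNAs were -0.63 ± 0.14 for DNAJB11 and -0.88 ± 0.18 for DNAJC3 (edgeR adjusted p = 0.019 and 0.017), and without the block -0.73 ± 0.30 and -0.75 ± 0.30, not called. ATF3 differed by -0.78 ± 0.18 and DDIT3 by -1.03 ± 0.16 (edgeR adjusted p = 0.026 and 0.0059), and without the block by -0.54 ± 1.88 and -0.53 ± 1.68, not called. The other 4 genes differed with and without the block by -0.87 ± 0.17 and -0.90 ± 0.39 (SEL1L), -1.51 ± 0.16 and -1.47 ± 0.26 (EDEM1), 0.61 ± 0.18 and 0.54 ± 0.33 (HYOU1), and 1.33 ± 0.23 and 1.61 ± 0.76 (NUPR1). In edgeR these 4 were called with the block and were not called in the fit without it. In ATF3 and DDIT3 these differences were small beside those of several log2 units between replicate numbers. NUPR1 also differed less between the siRNAs than between replicate 1 and the others (-1.59). EDEM1, HSPA5 and DNAJC3 differed more between the siRNAs than by replicate (-0.41, -0.21 and -0.48). For SEL1L, DNAJB11 and HYOU1 the sizes were closer to those by replicate (0.73, 0.57 and 0.58).

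**Figure D4:**
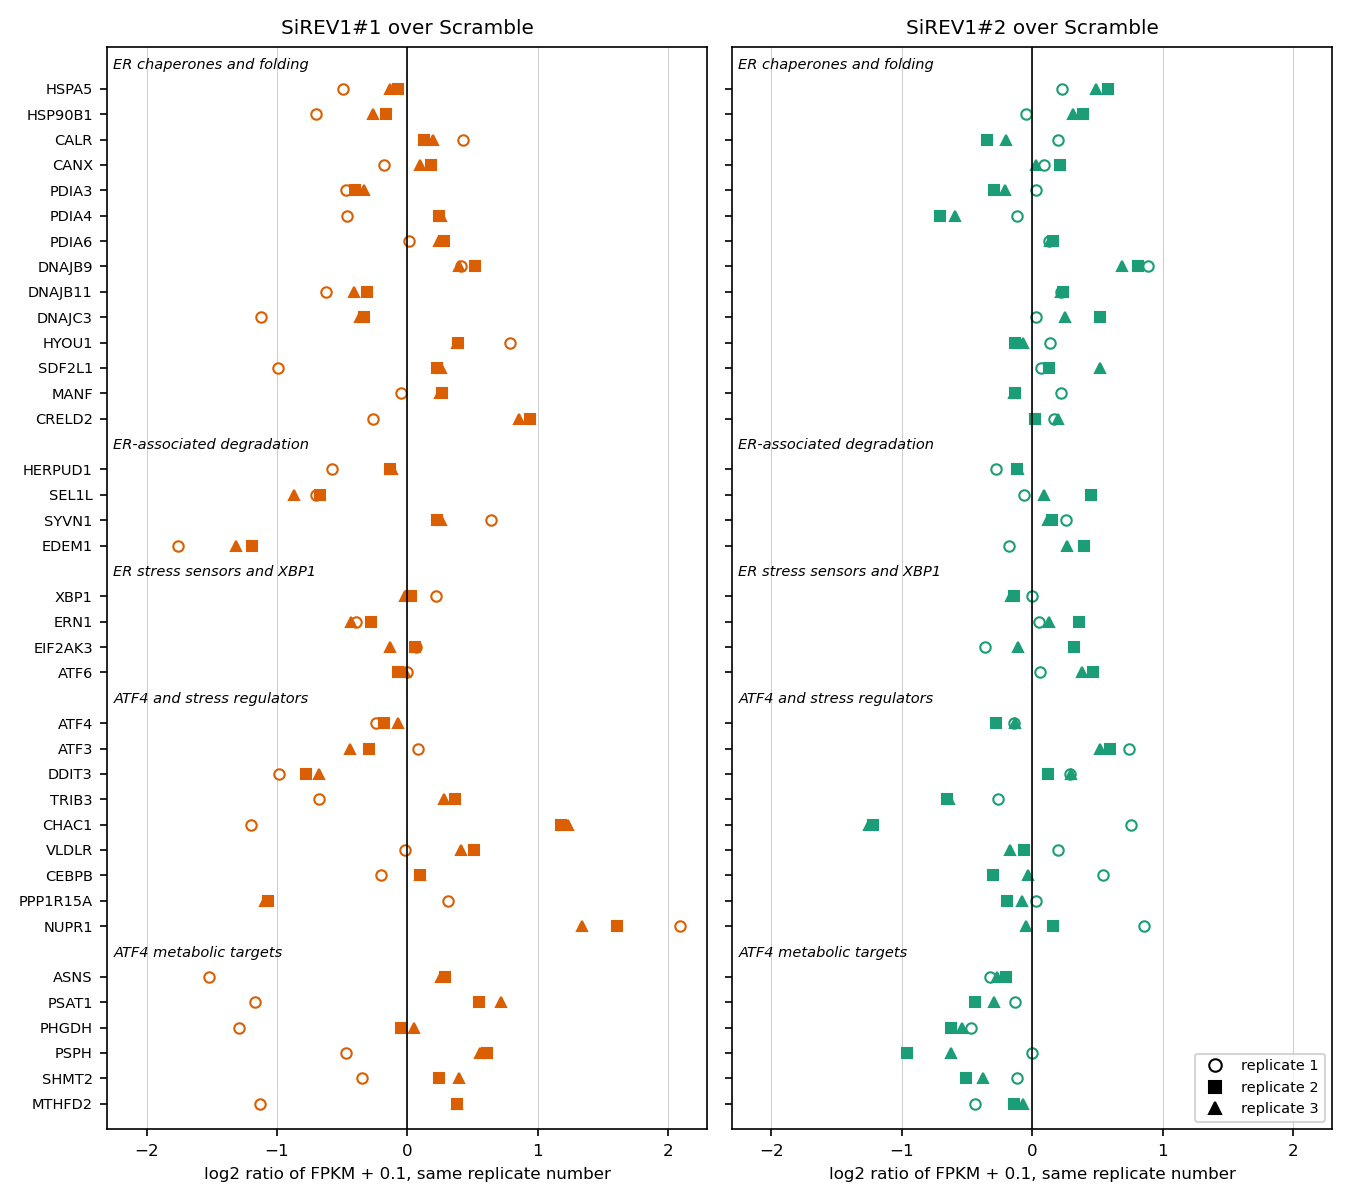
Log2 ratio of FPKM + 0.1 of each siRNA over the Scramble library of the same number for the 37 genes, SiREV1#1 on the left and SiREV1#2 on the right, with open circles for replicate 1, squares for replicate 2 and triangles for replicate 3. EDEM1 lies between -1.76 and -1.19 after SiREV1#1, and the open circles of ASNS, PSAT1, PHGDH and MTHFD2 lie below -1 while their squares and triangles lie between -0.05 and 0.72.

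The metabolic targets of ATF4 did not follow SiREV1#1 in one direction. ASNS was lower than Scramble in replicate 1, with a log2 ratio of -1.52, but at 0.29 and 0.26 in replicates 2 and 3. PSAT1 had ratios of -1.17, 0.55 and 0.72, MTHFD2 of -1.13, 0.38 and 0.38, PHGDH of -1.29, -0.05 and 0.05, PSPH of -0.47, 0.61 and 0.56 and SHMT2 of -0.35, 0.24 and 0.40. In replicate 1 all 6 lay below Scramble, and in replicates 2 and 3 all but PHGDH lay above it. After SiREV1#2 all 6 lay at or below Scramble in each pair, for example PHGDH with ratios of -0.47, -0.62 and -0.54. Across all replicates none of the 6 was called after either siRNA, with or without the replicate block.

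Among the regulators, TRIB3 and CHAC1 turned with the replicate in the same way after SiREV1#1, with ratios of -0.68, 0.37 and 0.28 for TRIB3 and of -1.20, 1.18 and 1.23 for CHAC1. PPP1R15A had the opposite order, at 0.31, -1.07 and -1.09. When only replicates 2 and 3 were fitted, which leaves 1 library of SiREV1#2 that is assumed to vary like the others, edgeR called 27 of 37 genes after SiREV1#1, against 46.5% of all genes, and 19 after SiREV1#2, against 38.4%. In that fit the log2 changes of the 6 metabolic targets ran from 0.01 to 0.65 after SiREV1#1, with a median of 0.37. After SiREV1#2 they ran from -0.90 to -0.12, with a median of -0.42. The medians of all genes were 0.01 and -0.00. PPP1R15A fell by 1.06 and CHAC1 rose by 1.26 after SiREV1#1 in the same fit, while CHAC1 fell by 1.20 after SiREV1#2. Calls in that fit rest on the small spread between replicates 2 and 3. They leave out replicate 1, where the ratios of both genes after SiREV1#1 had the opposite sign. Whether the change after an siRNA differed between replicate 1 and the others was not tested.

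**Figure D5:**
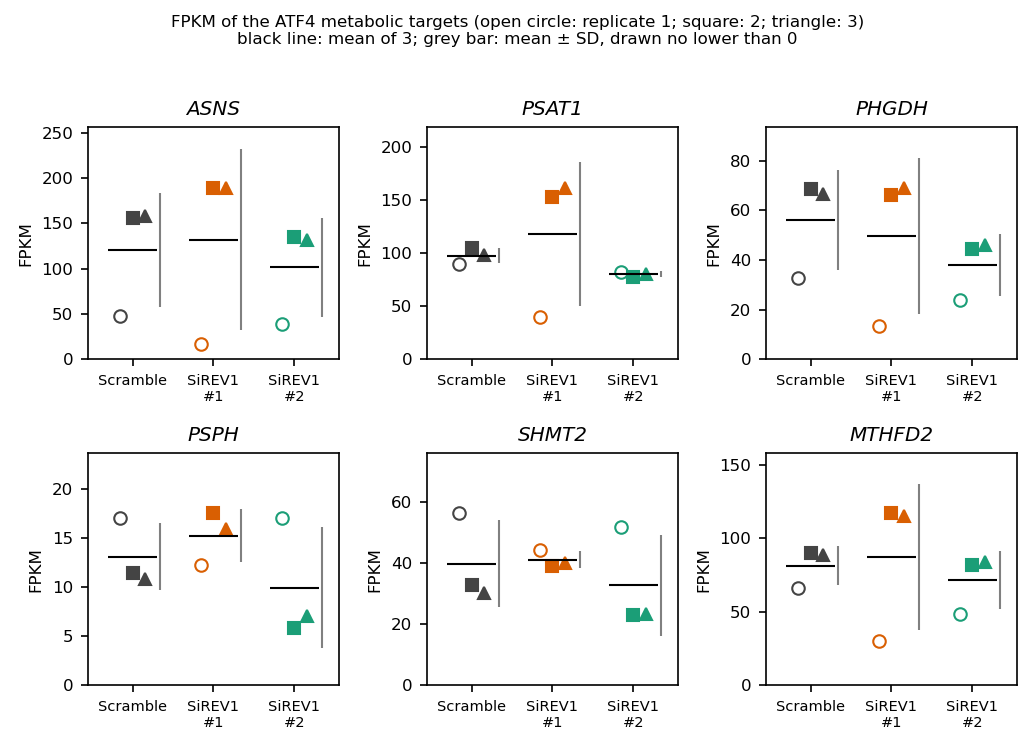
FPKM from 0 upward of the 6 ATF4 metabolic targets by group, with an open circle for replicate 1, a square for replicate 2, a triangle for replicate 3, a black line at the mean of 3 and a grey bar for the mean ± SD. For ASNS the SiREV1#1 circle is the lowest of the 9 libraries at 16.8 and the SiREV1#1 square and triangle are the highest at 190.

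Of the wider lists, some genes passed the blocked test after SiREV1#1, where 12.3% of all genes did. Among 40 other ATF4 targets 3 rose and 1 fell, with SESN2 at 1.34 ± 0.16, CTH, which makes cysteine, at 1.06 ± 0.21 and GDF15 at -1.10 ± 0.15. Among 47 other ER folding genes 2 rose and 1 fell, with PDIA5 at 1.22 ± 0.16. Of 14 cytosolic heat shock genes 4 fell, led by BAG3 at -0.94 ± 0.18. Of the 15 genes around eIF2, 3 fell: PPP1CB, a catalytic subunit of the phosphatase that acts on eIF2 among many substrates, at -2.20 ± 0.19, EIF2B1 at -0.76 ± 0.14 and EIF2S1, the subunit that is phosphorylated, at -0.74 ± 0.14. PPP1CB was also called without the block (-2.23 ± 0.29, edgeR adjusted p = 0.042). After SiREV1#2, where 1.91% of all genes were called, the blocked test called HSF1, the master factor of the heat shock response (-0.88 ± 0.15), and no other gene of these 4 lists.

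Gene models limit some of these values. In GENCODE v29, exons on the opposite strand cover 31.6% of the exon bases of DDIT3, 33.2% of MTHFD2 and 25.2% of PDIA6, and whether counting used strand is not given in the sources used here. Another gene model covers 44.6% of the exon bases of ASNS on its own strand, and 17.9% of the 50-base runs of ATF4 and 15.3% of those of PDIA3 also occur in transcripts of other genes, mostly pseudogenes.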

How the data were processed

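The authors deposited 1 table per library with estimated read counts (expected counts, not normalized) and FPKM values per gene. The submitters' processing notes name hg38 and StringTie 1.3.3b. The aligner and the strand setting are not given in the sources used here. The count column of SiREV1#2 replicate 3 is headed for and repeats replicate 2, so 1 column was not used and count fits hold 8 libraries, which limits the precision for SiREV1#2.

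Counts were rounded (42.6% of values were not whole) and tested with edgeR 4.0.16 under R 4.3.3: filterByExpr, TMM scaling, quasi-likelihood F test, group as the only term for the siRNA comparisons and group plus a term for replicate 1 for the comparison of replicates, with Benjamini-Hochberg adjustment over all genes and a threshold of 0.05. Standard errors are the log2 fold change over the square root of F. Same-numbered libraries deviated together from their group means (correlations of 0.734 to 0.929 over 9 pairs of libraries), so the replicate numbers were taken to pair the samples. For each gene of the 37 that edgeR called with the replicate block in a comparison of the text, values with and without it are printed. This pairing rests on replicate 1: the difference of replicate 2 minus 3 correlated at 0.175, -0.218 and -0.11 between groups. The biological coefficient of variation was 0.412 without a block, 0.161 with it and 0.0494 when only replicates 2 and 3 were fitted. FPKM ratios within a replicate number used a pseudocount of 0.1.

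Alternatives were a replicate 1 term, the replicate block, replicates 2 and 3 only, DESeq2 1.42.0, total counts only, no filter, limma-trend (limma 3.58.1) on log2(FPKM + 1) or log2(FPKM + 0.1) for genes with a mean FPKM over 1, and leaving out each library. limma-trend on FPKM with a replicate 1 term, and same-sign counts without replicate 1, were added after seeing the data. The scripts were tested on simulated data with 200 genes changed. The 37 genes, the wider lists and the tests were chosen with earlier results of these data known. Per-library values are given for genes called in a fit that the text uses, for the sensors and for ATF4, with ranges or fold changes for the rest, and of each wider list up to 3 genes with the smallest p among those called.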

Additional observations from a re-analysis of the deposited data

Results flagged for a closer look

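For 6 genes each of the 3 SiREV1#1 libraries lay on one side of the Scramble library of the same number and each of the 3 SiREV1#2 libraries on the other. The mean log2 ratios after SiREV1#1 and SiREV1#2 were -0.23 and 0.43 for HSPA5, -0.44 and 0.23 for DNAJB11, -0.60 and 0.27 for DNAJC3, -0.36 and 0.18 for ERN1, -0.03 and 0.30 for ATF6, and -0.81 and 0.24 for DDIT3. These opposite signs were not tested as such, and the share of all genes that show them was not counted. The same sign in all pairs was held by 55.1% of all genes after SiREV1#1 and by 55.6% after SiREV1#2. ATF6 met the rule with log2 ratios of only -0.00, -0.07 and -0.02 after SiREV1#1. The median of all genes after SiREV1#1 was -0.07 in limma-trend on FPKM with the replicate block. The direct comparison of the siRNAs is in the report, where edgeR with the replicate block called HSPA5, DNAJB11, DNAJC3 and DDIT3 but not ERN1 or ATF6. Without the block edgeR called none of them, while DESeq2 called HSPA5.

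For 7 genes the difference of replicate 1 from both other replicates had opposite signs in at least 2 groups. This was not tested, and the share of all genes that show it was not counted. The log2 ratio of replicate 1 over the mean of replicates 2 and 3 in Scramble, SiREV1#1 and SiREV1#2 was -1.38, -3.79 and 0.62 for CHAC1, -0.17, -1.97 and 0.06 for PSAT1, 0.61, -0.45 and 1.39 for PSPH, -0.28, -0.57 and 0.43 for CEBPB, 1.01, -0.15 and 1.06 for CRELD2, 0.44, -0.06 and 0.03 for HSP90B1, and 0.21, -0.11 and 0.18 for CANX. In groups of 3 libraries no single library was tested for standing apart.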

How the results depend on the processing

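The count of 32 genes that differed between replicate 1 and the others stayed within 1.5 times of itself under DESeq2, total counts, no filter, both limma-trend fits (30 to 33) and on leaving out each library (29 to 33). After SiREV1#1, where the test without a block called 0 of 37 genes, the replicate block called 6, a replicate 1 term 9, replicates 2 and 3 only 27, limma-trend on FPKM with the replicate block 9 and with a replicate 1 term 12, and DESeq2 and limma-trend with either pseudocount 1. After SiREV1#2 the counts were 1, 1, 19, 2 and 3 in the same order, and 0 under DESeq2 and limma-trend without a term. Between the siRNAs they were 9, 11, 28, 12 and 14, then 2 under DESeq2 and 1 under limma-trend with either pseudocount. Total counts, no filter and leaving out any library, which leaves 1 SiREV1#2 library that is assumed to vary like the others where one of that group is removed, gave 0 to 0 in all 3. The same sign in all pairs was found for 18 genes after SiREV1#1 and 24 after SiREV1#2, and without replicate 1 for 34 and 35, with fewer pairs to satisfy. With replicates 2 and 3 only, the direction turned to a call after SiREV1#2 for CALR (-0.29), PDIA3 (-0.27) and ERN1 (0.26), and between the siRNAs for MANF (0.39) and CEBPB (0.35). The cause was not tested. The lowest total count, in SiREV1#1 replicate 1, and the missing SiREV1#2 library limit what small changes could be detected.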
